A study of Homo sapiens with 12 samples.

Results

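The aminoacyl-tRNA synthetases are the enzymes that attach each amino acid to its tRNA, and 35 of their genes were followed here, 19 for enzymes of the cytosol and 16 for enzymes of the mitochondrion. They were chosen by gene symbol alone, with older symbols accepted, and not by any measured value. Of the 35 genes, 34 had a named probe on the array, and all 34 passed the detection filter, 18 cytosolic and 16 mitochondrial. CARS1, the cytosolic cysteine enzyme, had no named probe and was not analysed here. The 34 genes stand among 9203 named genes that were tested. RNA came from Caco-2 cells, a human colon adenocarcinoma line, transfected with siRNA using Lipofectamine RNAiMAX and hybridised to Illumina HT12 bead chips, 12 arrays in 4 groups of 3. ZNF658 siRNA 1 and control siRNA 1, a sense control, came from Ambion by the sample labels. ZNF658 siRNA 2, a mixture of siRNAs, and control siRNA 2, a non-targeting siRNA, came from Dharmacon. The study's list of siRNAs gives only the Dharmacon control for the arrays, and the groups here follow the labels, so which control siRNA the Ambion arrays received could not be settled. All 4 groups were thus transfected cells of 1 line, none was left untreated, and supplier, control siRNA and handling cannot be told apart between the 2 pairs. ZNF658 had no named probe, and its knockdown could not be read here. The question put to the data was whether cytosolic and mitochondrial synthetase transcripts moved in the same way when ZNF658, a zinc finger protein, was targeted.

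Both sets of enzymes are encoded in the nucleus. The cytosolic enzymes charge the tRNAs used by the main ribosomes, and the mitochondrial enzymes are imported to charge the tRNAs made from mitochondrial DNA. GARS1 and KARS1, for glycine and lysine, each serve both compartments and were kept with the cytosolic enzymes. Several cytosolic enzymes, among them EPRS1, which joins glutamate and proline activities in one chain, are held in a multisynthetase complex. FARSA and FARSB are the alpha and beta subunits of the cytosolic phenylalanine enzyme, whereas its mitochondrial counterpart FARS2 acts as a single chain. Transcripts of many cytosolic synthetases are known to rise with those of amino acid transporters and biosynthetic enzymes when amino acids are short, through the transcription factor ATF4.

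Because the synthetases known as ATF4 targets are mainly cytosolic, the promoter windows of the genes were searched for the ATF4 site TGATGNAAN on both strands. Windows ran from 250 bases before to 50 bases after the start in the RefSeq promoter table (GRCh38.p14), and 30 of the 35 genes matched it. The site was found in 6 of 16 cytosolic windows (37.5%) and in 1 of 14 mitochondrial windows (7.14%), against 3.67% of all 27305 windows and 6 of 23 windows of other ATF4 target genes (26.1%). The 7 sites are shown 5′ to 3′ on the strand of the site, with the 9 bases of the site in capitals and 8 bases on either side.
AARS1, plus strand, chr16:70289678-70289702: aacttggcTGATGCAACtgcgagaa
CARS1, plus strand, chr11:3057410-3057434: ctagaatcTGATGCAACcgccgccc
IARS1, plus strand, chr9:92293695-92293719: cacggaggTGATGCAACgcgctgaa
MARS1, minus strand, chr12:57488055-57488079: tccctcgcTGATGCAACcggaaccg
NARS1, minus strand, chr18:57621806-57621830: acgctctcTGATGCAACgccggaat
TARS1, minus strand, chr5:33440958-33440982: ggaccagcTGATGCAATcgaaaggc
YARS2, minus strand, chr12:32756078-32756102: cacactgcTGATGGAAAaattaagt
The cytosolic sites of AARS1, CARS1, IARS1, MARS1 and NARS1 share all 9 bases, and those of TARS1 and YARS2 do not match them in full. The sites of CARS1, IARS1, MARS1, NARS1 and TARS1 lay within 14 bases of the start used for the window, and those of AARS1 and YARS2 lay 188 and 197 bases before it. A match describes the letters of the window and is not a measured binding site.

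The ZTRE, the zinc transcriptional regulatory element at which ZNF658 was studied, was searched for by its published pattern in the same windows. It was present in 5 of 16 cytosolic windows (31.2%), those of EPRS1, FARSA, KARS1, SARS1 and TARS1. It was present in 6 of 14 mitochondrial windows (42.9%), those of EARS2, FARS2, LARS2, NARS2, PARS2 and RARS2, against 21.9% of all windows and 8 of 23 windows of other ATF4 target genes (34.8%). A short example from each class is shown, with the matched bases in capitals, the first read on the minus strand and the second on the plus strand.
KARS1, chr16:75647707-75647735: CCCGCCCCCTCTCCCCCGGAAGAGGTGGG
RARS2, chr6:87590035-87590064: gccggaaaCCCGCCCCGGAGGGtgatgcca
The pattern allows up to 50 bases between its arms and is rich in C and G, and base composition was not matched.

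The arrays detected between 14454 and 16167 probes each, and 14804 probes were tested. On 8 of 12 arrays the closest array belonged to the same group, and on 12 of 12 to the same pair. Replicate 3 of ZNF658 siRNA 2 correlated more closely with replicates 1 and 2 of control siRNA 2 (r = 0.987 to 0.989) than with its own group (0.971 to 0.983). Replicate 3 of control siRNA 2 correlated more closely with replicates 1 and 2 of ZNF658 siRNA 2 (0.960 to 0.973) than with its own group (0.945 to 0.948). These 2 arrays went against their labels, and the class and list counts of each comparison that uses them are also given without them. They were singled out by their values in these same data. P values and calls from the fit without them are therefore descriptive and not independent tests. In the Ambion pair, replicate 3 of ZNF658 siRNA 1 and replicate 1 of control siRNA 1 were closest to each other (r = 0.990). Neither was thus closest to its own group, and both were kept in the fit without the 2 Dharmacon arrays. All 7 named markers of intestinal epithelium, CDX1, CDX2, KRT8, KRT18, EPCAM, CDH1 and CDH17, were detected on all 12 arrays. Of 5 named markers of other cells, COL1A1, COL1A2 and CD14 were also detected on all 12. In the RNA of a whole culture, fewer cells with a transcript and less transcript per cell cannot be told apart.

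Levels are log2 intensities after background correction and quantile normalisation, and levels of different probes cannot be set against each other. Of the 34 genes, 33 were detected on all 12 arrays. The exception was PARS2, the mitochondrial proline enzyme, detected on 11, including 2 of 3 arrays of ZNF658 siRNA 2. Mean levels ran from 7.82 for FARSA to 14.10 for FARSB among cytosolic genes and from 6.29 for PARS2 to 11.51 for IARS2 among mitochondrial genes. The range from the lowest to the highest array was 0.44 (LARS1) to 1.204 (VARS1) in cytosolic genes, with a median of 0.73, and 0.43 (FARS2) to 1.27 (VARS2) in mitochondrial genes, with a median of 0.81. VARS1, the cytosolic valine enzyme, was highest on replicate 2 of ZNF658 siRNA 2 (10.67) and replicate 3 of control siRNA 2 (10.63), and its level on the other arrays lay between 9.47 and 10.06. The group mean was highest in ZNF658 siRNA 2 for 10 of 18 cytosolic genes, in control siRNA 1 for 6, in control siRNA 2 for 2 and in ZNF658 siRNA 1 for 0. Among mitochondrial genes it was highest in control siRNA 1 for 6, in each of control siRNA 2 and ZNF658 siRNA 1 for 4, and in ZNF658 siRNA 2 for 2.

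**Figure D1:**
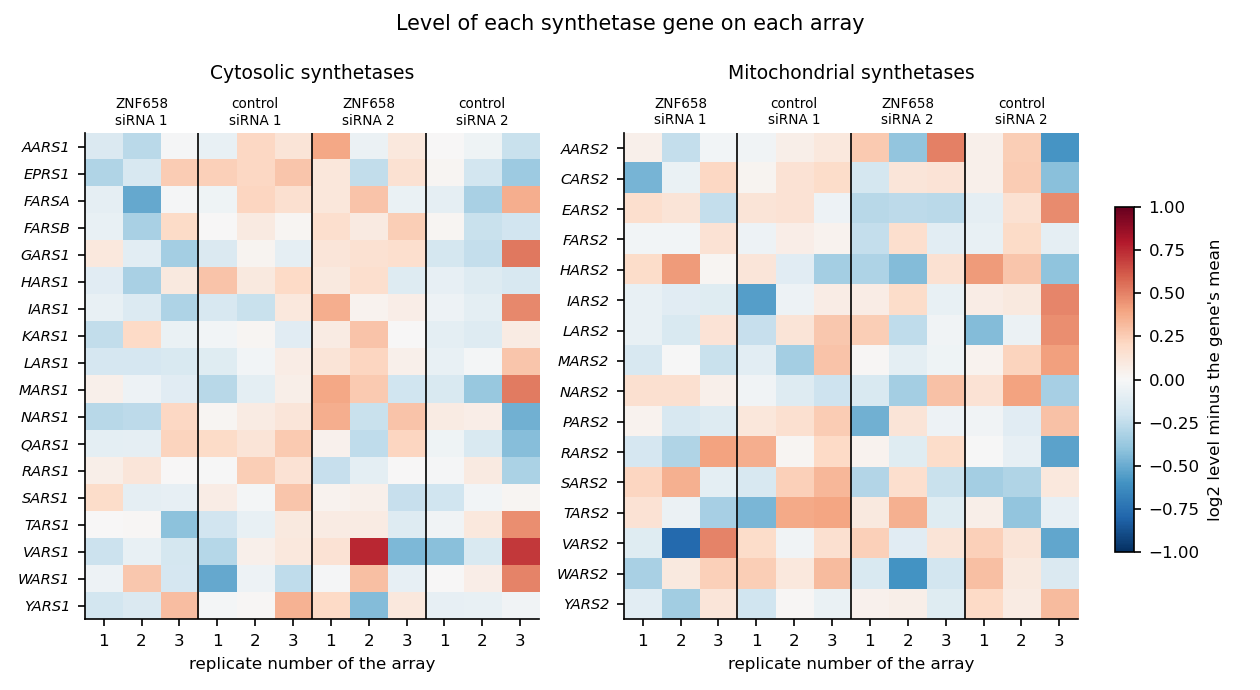
Heat maps of the 34 synthetase genes (rows) on the 12 arrays (columns, by group and replicate number), coloured by the log2 level minus the gene's mean over all arrays. Deviations stayed within 1 log2 unit, and in the cytosolic panel VARS1 stands out on replicate 2 of ZNF658 siRNA 2 (10.67) and replicate 3 of control siRNA 2 (10.63).

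With ZNF658 siRNA 1, most cytosolic synthetase transcripts were measured slightly lower than with control siRNA 1, and none passed the test. The log2 fold change was below 0 for 15 of 18 cytosolic genes, with a median of −0.11, against 51.4% of all probes and an all-probe median of −0.0088. It was below 0 for 11 of 16 mitochondrial genes, with a median of −0.082. A call required an adjusted P value under 0.05 over all tested probes in limma and a change of at least 1.2-fold, and 0 of 34 genes were called, against 0.0135% of probes. No synthetase gene had an unadjusted P value under 0.05, compared with 7.21% of all probes, and the rank product test called 0 as well. In a fit without the 2 Dharmacon arrays named above, which share in its estimate of spread, HARS1 and HARS2 reached an unadjusted P value under 0.05, as did 13.9% of probes. With array quality weights in the fit, 1 gene was called, EPRS1 (−0.41, limma adjusted P = 0.0497), where 5.68% of probes were. The two-sided tests measure the spread between arrays, since no source used here says that the replicates were separate cultures.

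Among cytosolic genes, the changes furthest from 0 were those of FARSA, EPRS1 and HARS1, the histidine enzyme. FARSA measured 7.73, 7.31 and 7.81 with ZNF658 siRNA 1 and 7.78, 8.04 and 7.98 with control siRNA 1, which gave a change of −0.31 on the log2 scale (SE 0.21, adjusted P = 0.756). EPRS1 measured 11.69, 11.83 and 12.25 against 12.23, 12.19 and 12.26 (−0.31, SE 0.16, adjusted P = 0.706). For both genes 2 of the ZNF658 arrays lay below every control array and the third lay among them. Leaving out 1 array moved FARSA to between −0.41 (without ZNF658 siRNA 1 replicate 3) and −0.16 (without its replicate 2), and EPRS1 to between −0.47 (without replicate 3) and −0.19 (without replicate 1). HARS1 measured 10.36, 10.15 and 10.57 against 10.76, 10.57 and 10.67 (−0.30, SE 0.15, adjusted P = 0.696) and gave −0.20 without ZNF658 siRNA 1 replicate 2. WARS1, the tryptophan enzyme, was the highest of the cytosolic changes at 0.29 (SE 0.19) by its brighter probe, whereas its other probe gave −0.046. WARS1 is known as an interferon-inducible gene. IFIT1 (2.09) and IFIT2 (2.22), the interferon genes of the fixed list that were measured, were called higher with this siRNA. Of all probes 0.0135% were called. IFIT1 was detected on 8 and IFIT2 on 7 of the 12 arrays. With siRNA 2 they gave 0.30 and 0.37 and the brighter WARS1 probe −0.12, and none was called. A link of WARS1 to interferon was not tested.

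Among mitochondrial genes HARS2, the histidine enzyme of that compartment, measured 10.47, 10.71 and 10.30 against 10.40, 10.17 and 9.95 (0.32, SE 0.22, adjusted P = 0.761). NARS2, for asparagine, measured 9.54, 9.54 and 9.43 against 9.35, 9.26 and 9.18 (0.24, SE 0.20, adjusted P = 0.801). PARS2 measured 6.33, 6.13 and 6.16 against 6.40, 6.45 and 6.54 (−0.26, SE 0.22, adjusted P = 0.804). All 3 arrays lay above the controls for NARS2 and below them for PARS2, and the groups overlapped for HARS2, whose change was 0.21 without control siRNA 1 replicate 3. LARS1, the cytosolic leucine enzyme, was the only other gene whose groups did not overlap, at −0.14, which makes 3 of 34 genes against 16.7% of all probes.

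With ZNF658 siRNA 2, by contrast, most cytosolic transcripts were measured slightly higher than with control siRNA 2 and most mitochondrial ones slightly lower. The log2 fold change was above 0 for 15 of 18 cytosolic genes, with a median of 0.12, and for 6 of 16 mitochondrial genes, with a median of −0.10, against 50.1% of all probes. Again 0 of 34 genes were called, against 0% of probes, and the rank product test called 0 of them. Array quality weights gave 1 call, HARS2 (−0.55, limma adjusted P = 0.0499), where 4.05% of probes were called. At an unadjusted P value under 0.05 there were 2 genes, FARSB and EARS2, where 5.65% of all probes reached it.

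FARSB measured 14.26, 14.18 and 14.34 with ZNF658 siRNA 2 and 14.11, 13.87 and 13.90 with control siRNA 2 (0.30, SE 0.13, limma adjusted P = 0.853). The 2 other cytosolic genes with the widest change were NARS1, for asparagine, and AARS1, for alanine. NARS1 measured 11.75, 11.17 and 11.67 against 11.47, 11.46 and 10.91 (0.25, SE 0.19, adjusted P = 0.942). AARS1 measured 12.78, 12.33 and 12.49 against 12.40, 12.35 and 12.17 (0.23, SE 0.14, adjusted P = 0.92). The groups overlapped for NARS1 and AARS1 and did not for FARSB. Leaving out 1 array gave 0.066 (without control siRNA 2 replicate 3) to 0.43 (without ZNF658 siRNA 2 replicate 2) for NARS1, and 0.11 (without ZNF658 siRNA 2 replicate 1) to 0.33 (without its replicate 2) for AARS1.

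EARS2, the mitochondrial glutamate enzyme, measured 8.00, 8.02 and 8.01 against 8.19, 8.43 and 8.75 (−0.45, SE 0.18, limma adjusted P = 0.842). WARS2, for tryptophan, measured 6.88, 6.44 and 6.85 against 7.33, 7.13 and 6.89 (−0.39, SE 0.21, adjusted P = 0.915). HARS2 measured 9.98, 9.85 and 10.44 against 10.71, 10.56 and 9.88 (−0.29, SE 0.22, adjusted P = 0.94). The ZNF658 arrays lay below all controls for EARS2 and WARS2, as they did for MARS2 (−0.27) and YARS2 (−0.20), whereas replicate 3 of each group set HARS2 the other way round. The change of HARS2 ran from −0.55 without control siRNA 2 replicate 3 to −0.13 without its replicate 1, and that of WARS2 was −0.25 without ZNF658 siRNA 2 replicate 2. Together with FARSB, 5 of 34 genes had groups that did not overlap, against 9.47% of all probes.

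**Figure D2:**
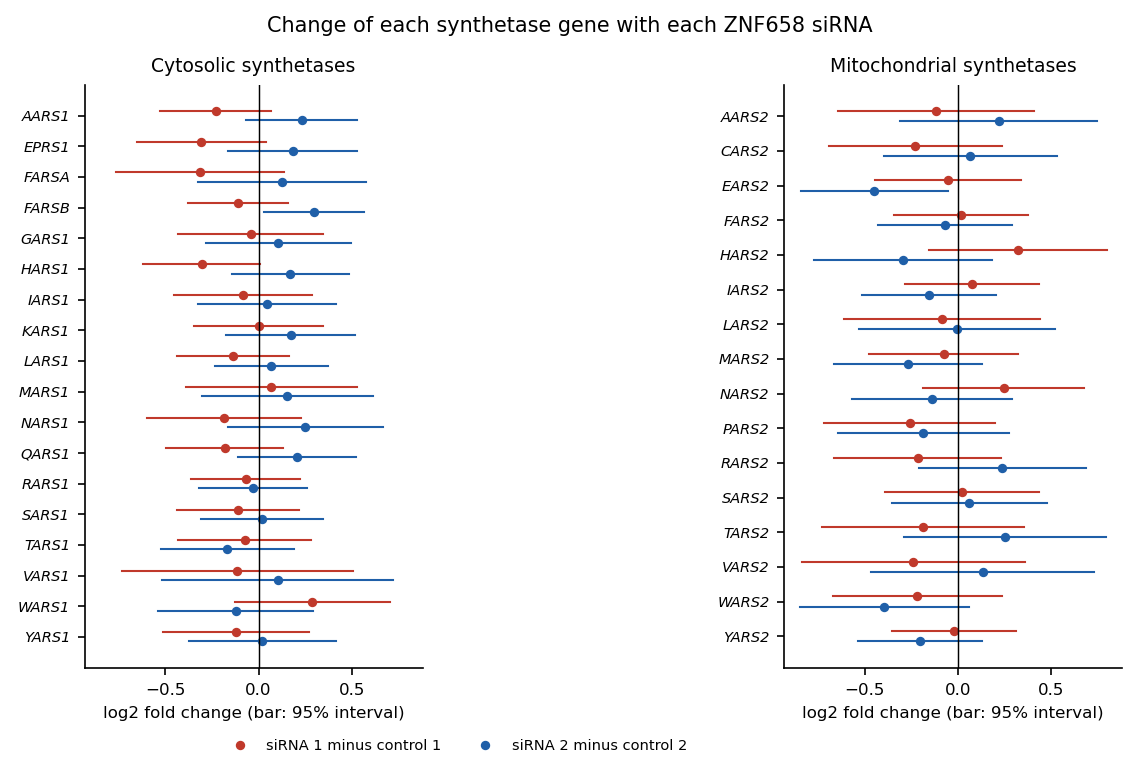
Log2 fold change of each synthetase gene (points, horizontal axis) with its 95% interval from the limma fit (bars), for ZNF658 siRNA 1 (red) and ZNF658 siRNA 2 (blue), each against its own control. In the cytosolic panel 15 of 18 red points lie left of 0 and 15 of 18 blue points lie right of it, and FARSB and EARS2 are the genes with a bar that does not reach 0.

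The arrays numbered 3 carried much of the spread in the siRNA 2 pair. Replicate 3 of ZNF658 siRNA 2 minus replicate 3 of control siRNA 2 was opposite in sign to the difference of replicates 1 and 2 for 14 of 18 cytosolic genes and 10 of 16 mitochondrial genes, against 67.9% of all tested probes. For VARS1 the difference was 0.73 over replicates 1 and 2 and −1.16 in replicate 3. For MARS1, the methionine enzyme, it was 0.59 and −0.72, for HARS2 −0.72 and 0.56, and for NARS2 −0.52 and 0.63. Among the genes that kept one sign in both were AARS1, FARSB, HARS1 and EARS2, with AARS1 at 0.18 and 0.33 and EARS2 at −0.30 and −0.75. Without the 2 arrays, 309 of 15153 probes were called for siRNA 2 (2.04%) and 0 of 34 synthetase genes. Cytosolic genes were then above 0 in 14 of 18, with a median of 0.20, and mitochondrial genes in 4 of 16, with a median of −0.11, against 47.5% of all probes. The sign turned for 11 of the 34 genes, among them NARS1 (−0.0053), QARS1 (−0.011) and TARS1 (0.047). The lowest adjusted P values in limma were those of HARS2 (−0.72, adjusted P = 0.0503), MARS1 (0.59, adjusted P = 0.0616) and VARS1 (0.73, adjusted P = 0.0616). In that fit 3 cytosolic genes were higher and 3 mitochondrial genes lower at an unadjusted P value under 0.05, where 10.6% of all probes were higher and 11% lower.

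**Figure D3:**
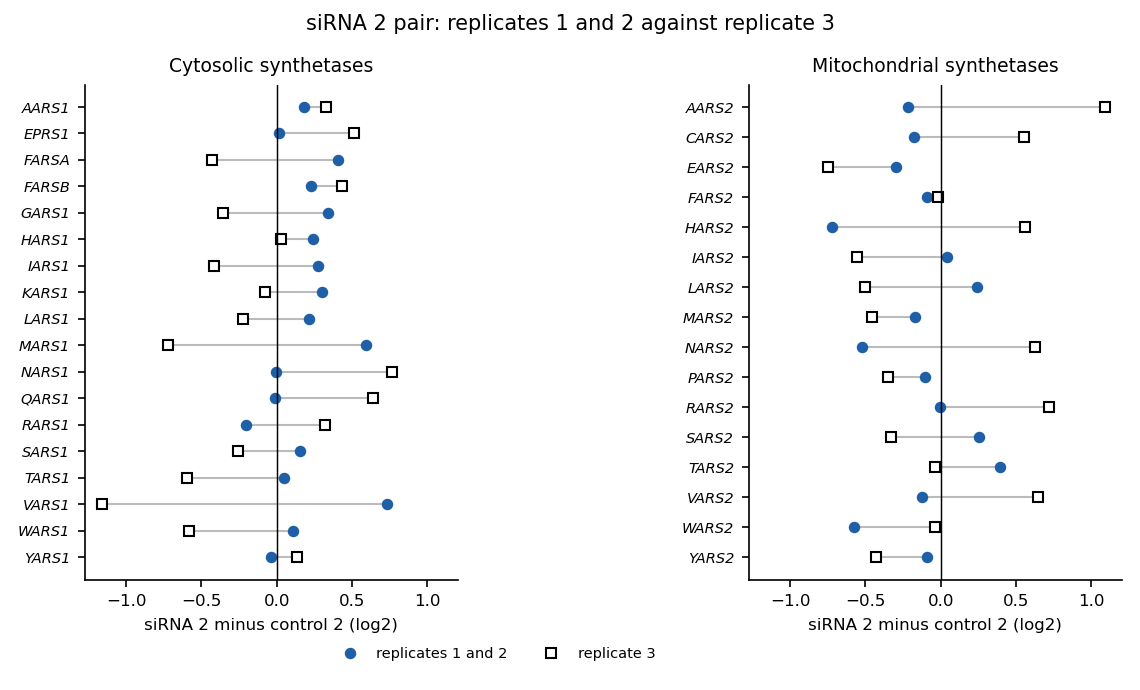
ZNF658 siRNA 2 minus control siRNA 2 (log2, horizontal axis) for each synthetase gene, taken over replicates 1 and 2 (blue circles) and from replicate 3 alone (open squares). The 2 symbols lie on opposite sides of 0 for 14 of 18 cytosolic and 10 of 16 mitochondrial genes, with the widest split for VARS1 (0.73 and −1.16).

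Whether the 2 siRNAs differed was tested as the effect of siRNA 2 minus the effect of siRNA 1. The difference was above 0 for 16 of 18 cytosolic genes, with a median of 0.19, and for 8 of 16 mitochondrial genes, with a median of −0.023, against 51.1% of all probes. No gene was called, against 0% of probes, while 4 cytosolic genes and 0 mitochondrial genes had an unadjusted P value under 0.05, which 10.8% of all probes had. These 4 were EPRS1 at 0.49 (SE 0.23, limma adjusted P = 0.463), HARS1 at 0.47 (SE 0.21, adjusted P = 0.438), AARS1 at 0.46 (SE 0.20, adjusted P = 0.429) and FARSB at 0.41 (SE 0.18, adjusted P = 0.434). With array quality weights 6 of the 34 genes were called in this comparison, AARS1, EPRS1, FARSA and FARSB as higher and HARS2 and NARS2 as lower, where 18.4% of probes were. In each of the 4 cytosolic genes above, the value was below 0 with siRNA 1 and above 0 with siRNA 2. The difference also takes in the shift between the controls. Control siRNA 2 minus control siRNA 1 was −0.42 for EPRS1, −0.32 for HARS1, −0.17 for AARS1 and −0.17 for FARSB. Among mitochondrial genes, HARS2 differed by −0.62 (SE 0.32, adjusted P = 0.512), RARS2, the arginine enzyme, by 0.45 (SE 0.30, adjusted P = 0.625) and TARS2, the threonine enzyme, by 0.44 (SE 0.36, adjusted P = 0.71). RARS2 measured 8.65, 8.52 and 9.22 with ZNF658 siRNA 1, 9.19, 8.84 and 9.02 with control siRNA 1, 8.85, 8.70 and 9.01 with ZNF658 siRNA 2 and 8.82, 8.74 and 8.29 with control siRNA 2. TARS2 measured 6.94, 6.74 and 6.47, then 6.34, 7.18 and 7.19, then 6.89, 7.15 and 6.68, and then 6.86, 6.40 and 6.72 in the same order of groups. The groups overlapped within each pair for both genes. RARS2 gave 0.29 without control siRNA 2 replicate 3, and TARS2 ran from 0.29 without control siRNA 1 replicate 3 to 0.72 without its replicate 1. Without the arrays numbered 3 of the Dharmacon groups, the difference was above 0 for 16 of 18 cytosolic genes, with a median of 0.33, and for 7 of 16 mitochondrial genes, with a median of −0.049, against 49% of all probes.

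The log2 fold changes of the 2 histidine enzymes had opposite signs with either siRNA. On all arrays, the same held for FARSA and FARS2, FARSB and FARS2, IARS1 and IARS2, MARS1 and MARS2, and NARS1 and NARS2. HARS1 and HARS2 are neighbours on chromosome 5 and are read in opposite directions, with 84 bases between them (GRCh38.p14, HARS1 at chr5:140673905-140691370 and HARS2 at chr5:140691455-140699305). For HARS1 and HARS2 the changes were −0.30 and 0.32 with siRNA 1, and 0.17 and −0.29 with siRNA 2. Between the controls they were also opposite, at −0.32 and 0.21. Once the replicate 3 arrays of both Dharmacon groups were left out, HARS1 differed between the siRNAs by 0.54 (SE 0.21, limma adjusted P = 0.109) and HARS2 by −1.04 (SE 0.23, adjusted P = 0.0169). In the same fit, control siRNA 2 minus control siRNA 1 was −0.30 for HARS1 and 0.46 for HARS2, a shift that these differences take in. HARS2 then measured 9.98 and 9.85 with ZNF658 siRNA 2 against 10.71 and 10.56 with control siRNA 2, and the order was the reverse of that between the Ambion groups. NARS2 was the other gene called without these arrays, at −0.76 (SE 0.21, adjusted P = 0.0362), so that 2 of 34 genes were called lower, both of them mitochondrial, against 4.78% of all probes called lower and 9.61% called in either direction. The arrays were left out for their values in these same data, so the P values and calls of that fit are descriptive. The probe sequences were not used here, and cross-hybridisation between the paired genes was not tested.

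**Figure D4:**
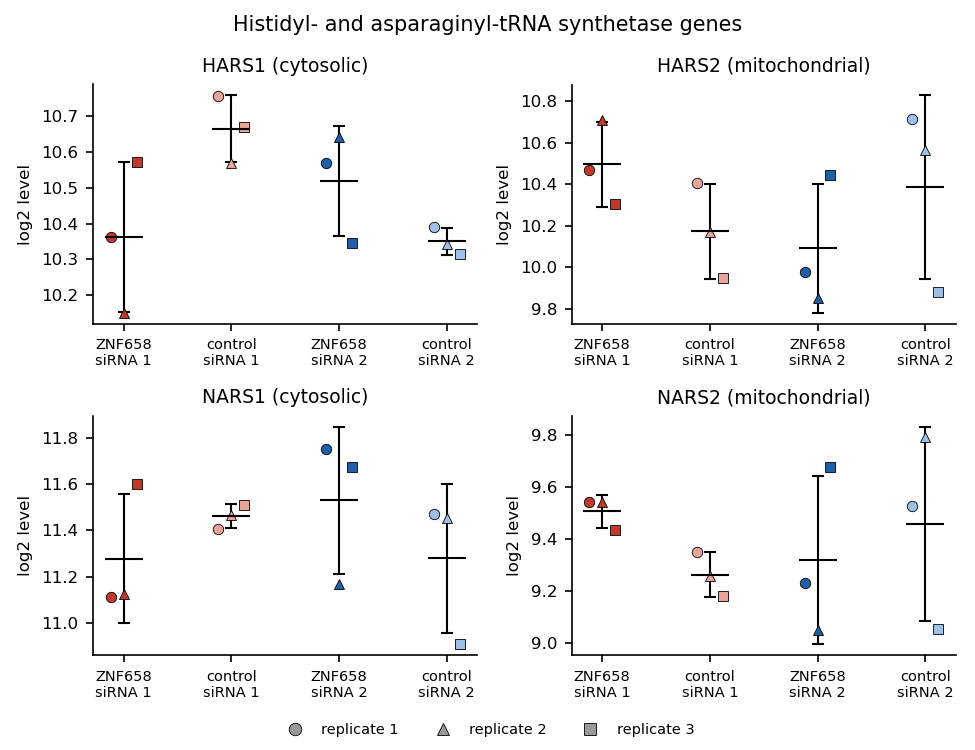
Log2 level of HARS1, HARS2, NARS1 and NARS2 on each array (symbols by replicate number), with the group mean and SD of 3 arrays (black). HARS2 runs from 9.85 to 10.71. Its replicate 3 square lies above the circle and triangle with ZNF658 siRNA 2 (10.44) and below them with control siRNA 2 (9.88). The NARS1 square with ZNF658 siRNA 2 (11.67) lies between its circle and triangle.

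Over 14 pairs of a cytosolic and a mitochondrial gene for the same amino acid, covering 13 amino acids, the log2 fold changes of the 2 members had opposite signs in 8 pairs with siRNA 1 and in 10 with siRNA 2, and in 7 between the controls and 6 between the suppliers. The cytosolic member had the higher change in 5 pairs with siRNA 1 and in 10 with siRNA 2, compared with 6 between the controls and 10 between the suppliers. With the arrays numbered 3 of the Dharmacon groups left out, 7 pairs had opposite signs with siRNA 2 and the cytosolic member was the higher in 10. The phenylalanine enzyme counts as 2 of these pairs, since FARSA and FARSB were both set against FARS2, whose own values were 0.016 and −0.070.

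In the mean of the 2 siRNA effects the classes lay close to 0. The median was −0.013 for cytosolic and −0.044 for mitochondrial genes, with 8 of 18 and 6 of 16 above 0 against 50.9% of all probes. No gene was called or had an unadjusted P value under 0.05, against 0.00675% and 2.51% of all probes. With all 12 arrays WARS2 was the only gene past 1.2-fold, at −0.31 (SE 0.15, limma adjusted P = 0.997), and EARS2 and PARS2 followed at −0.25 and −0.22. WARS2 measured 6.71, 7.13 and 7.27 with ZNF658 siRNA 1 and 7.28, 7.14 and 7.35 with control siRNA 1, so that the groups overlapped there and did not in the siRNA 2 pair. Among cytosolic genes the mean was furthest from 0 for TARS1, for threonine (−0.12), MARS1 (0.11) and FARSB (0.095), the last of which was −0.11 with siRNA 1 and 0.30 with siRNA 2. TARS1 measured 10.87, 10.89 and 10.47 against 10.68, 10.80 and 10.97 in the siRNA 1 pair and 10.96, 10.96 and 10.74 against 10.84, 10.98 and 11.34 in the siRNA 2 pair, with overlap in both. MARS1 measured 10.45, 10.35 and 10.29 against 10.12, 10.30 and 10.46, and 10.79, 10.67 and 10.20 against 10.25, 10.02 and 10.92, also with overlap in both. Leaving out 1 array gave −0.048 for TARS1 (without control siRNA 2 replicate 3), 0.017 to 0.24 for MARS1 (without control siRNA 2 replicates 2 and 3, in that order) and 0.029 for FARSB (without ZNF658 siRNA 1 replicate 3), and PARS2 was −0.135 without ZNF658 siRNA 2 replicate 1.

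When the arrays numbered 3 of the Dharmacon groups were left out, the mean was above 0 for 10 of 18 cytosolic genes, with a median of 0.031, and for 4 of 16 mitochondrial genes, with a median of −0.13, against 47.9% of all probes. No gene was called, against 0% of probes, and MARS1 (0.33, SE 0.10), VARS1 (0.31, SE 0.13) and WARS2 (−0.40, SE 0.16) had an unadjusted P value under 0.05, which 7.37% of probes had, each with a limma adjusted P = 0.669. These 3 genes were then past 1.2-fold, and the sign of the mean turned for 14 of the 34.

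WARS2 had the widest range of group means of all 34 genes, 0.53, and over the 12 arrays and 9202 other genes its pattern was most like those of CHD2 (r = 0.893), ALDH1A1 (0.890), RPL13 (0.876), ERCC1 (0.870) and UBE2J2 (0.870). For these 5 genes r lay between 0.884 (UBE2J2) and 0.945 (RPL13) over the 10 arrays other than the Dharmacon arrays numbered 3. The genes were picked by r over all 12 arrays, which include these 10, so this range is not a separate check.

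Changes of the same size were seen between the controls. Control siRNA 2 minus control siRNA 1 gave a median of −0.15 for cytosolic and −0.096 for mitochondrial genes, with 7 of 18 and 6 of 16 above 0 against 51% of all probes. None of the 34 genes was called, against 2.03% of probes, and 5 had an unadjusted P value under 0.05, which 14.9% of probes had. WARS1 measured 9.22, 9.28 and 9.71 with control siRNA 2 and 8.70, 9.16 and 8.96 with control siRNA 1 (0.46, SE 0.19, limma adjusted P = 0.276). EPRS1 measured 12.01, 11.81 and 11.62 against 12.23, 12.19 and 12.26 (−0.42, SE 0.16, adjusted P = 0.234). QARS1, for glutamine, measured 12.67, 12.56 and 12.29 against 12.90, 12.84 and 12.97 (−0.40, SE 0.15, adjusted P = 0.204). The groups did not overlap for any of these 3 genes. HARS1, another of the 5, measured 10.39, 10.34 and 10.32 against 10.76, 10.57 and 10.67 (−0.32, SE 0.15, adjusted P = 0.331). Its groups did not overlap either. IARS2, the mitochondrial isoleucine enzyme, measured 11.58, 11.60 and 11.99 against 10.95, 11.46 and 11.58 (0.39, SE 0.17, adjusted P = 0.282). RARS2 differed by −0.40 (SE 0.21, adjusted P = 0.4) and SARS2, for serine, by −0.31 (SE 0.19, adjusted P = 0.486). SARS2 measured 9.61, 9.65 and 10.06 against 9.79, 10.19 and 10.28, with overlap. In all, 8 of 34 genes had control groups that did not overlap, against 20.6% of all probes. Without the arrays numbered 3 of the Dharmacon groups the mitochondrial median turned to 0.038, with 9 of 16 genes above 0, while the cytosolic median was −0.14, with 4 of 18 above 0, against 52% of all probes. None of the 34 genes was called, where 5.44% of probes were, and HARS2 (0.46), NARS2 (0.40) and SARS2 (−0.46) had an unadjusted P value under 0.05, which 22.4% of probes had. WARS1 was 0.31, EPRS1 −0.32, QARS1 −0.29, IARS2 0.26 and RARS2 −0.23 in that fit. IARS2 was 0.21 without control siRNA 1 replicate 1.

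Between all 6 Dharmacon and all 6 Ambion arrays, IARS1, the cytosolic isoleucine enzyme, was 0.26 higher (SE 0.12, limma adjusted P = 0.288) and IARS2 0.28 higher (SE 0.12, adjusted P = 0.241), while SARS2 differed by −0.29 (SE 0.14, adjusted P = 0.295). IARS1 measured 10.74, 10.67 and 10.50 with ZNF658 siRNA 1, 10.65, 10.59 and 10.92 with control siRNA 1, 11.17, 10.85 and 10.88 with ZNF658 siRNA 2 and 10.76, 10.71 and 11.29 with control siRNA 2. Cytosolic genes were above 0 in 12 of 18 and mitochondrial genes in 6 of 16, against 50.4% of all probes. IARS1, IARS2 and SARS2 were the 3 genes with an unadjusted P value under 0.05, against 16.8% of probes. No gene was called, where 4.61% of probes were, and no gene had groups that did not overlap, where 3.78% of probes did. Without the arrays numbered 3 of the Dharmacon groups, 12 of 18 cytosolic and 8 of 16 mitochondrial genes were above 0, against 52.6% of all probes, with IARS1 at 0.19, IARS2 at 0.24 and SARS2 at −0.34. The last 2 had an unadjusted P value under 0.05, which 19.5% of probes had, and no gene was called, where 5.9% of probes were. IARS2 was 0.18 without control siRNA 1 replicate 1.

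The 2 classes were then followed array by array, as the mean over each class of the log2 level minus the gene's own mean over all arrays. The cytosolic mean minus the mitochondrial mean was −0.056, −0.050 and −0.072 on the arrays of ZNF658 siRNA 1 and −0.019, −0.0001 and −0.015 on those of control siRNA 1. It was 0.21, 0.17 and −0.0046 on the arrays of ZNF658 siRNA 2 and −0.11, −0.18 and 0.13 on those of control siRNA 2. The classes thus differed little in the Ambion pair and stood further apart in the Dharmacon pair, with cytosolic above mitochondrial on 3 of 12 arrays. These were replicates 1 and 2 of ZNF658 siRNA 2 and replicate 3 of control siRNA 2. By group, the value was −0.059 ± 0.011 (SD, n = 3) for ZNF658 siRNA 1, −0.011 ± 0.0098 for control siRNA 1, 0.12 ± 0.11 for ZNF658 siRNA 2 and −0.053 ± 0.16 for control siRNA 2. The values of the Ambion groups did not overlap, and those of the Dharmacon groups did. Over replicates 1 and 2 the mean was 0.19 for ZNF658 siRNA 2 and −0.15 for control siRNA 2.

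The level of the 18S rRNA probe went with the sign of this value in the Dharmacon pair and did not follow its order in the Ambion pair. In the Dharmacon pair it was 13.99, 14.55 and 11.56 on the 3 arrays where cytosolic genes stood above mitochondrial ones, and 9.88, 10.22 and 10.06 on the other 3. In the Ambion pair it was 14.55 and 14.74 on replicates 2 and 3 of control siRNA 1, and 9.58, 9.57, 10.70 and 10.74 on the other 4. Replicates 3 and 1 of control siRNA 1, at 14.74 and 10.74, had class values of −0.015 and −0.019. Replicate 3 of ZNF658 siRNA 1, at 10.70, had the lowest class value of the pair, −0.072. The part of the 18S rRNA level in the class values was not tested.

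**Figure D5:**
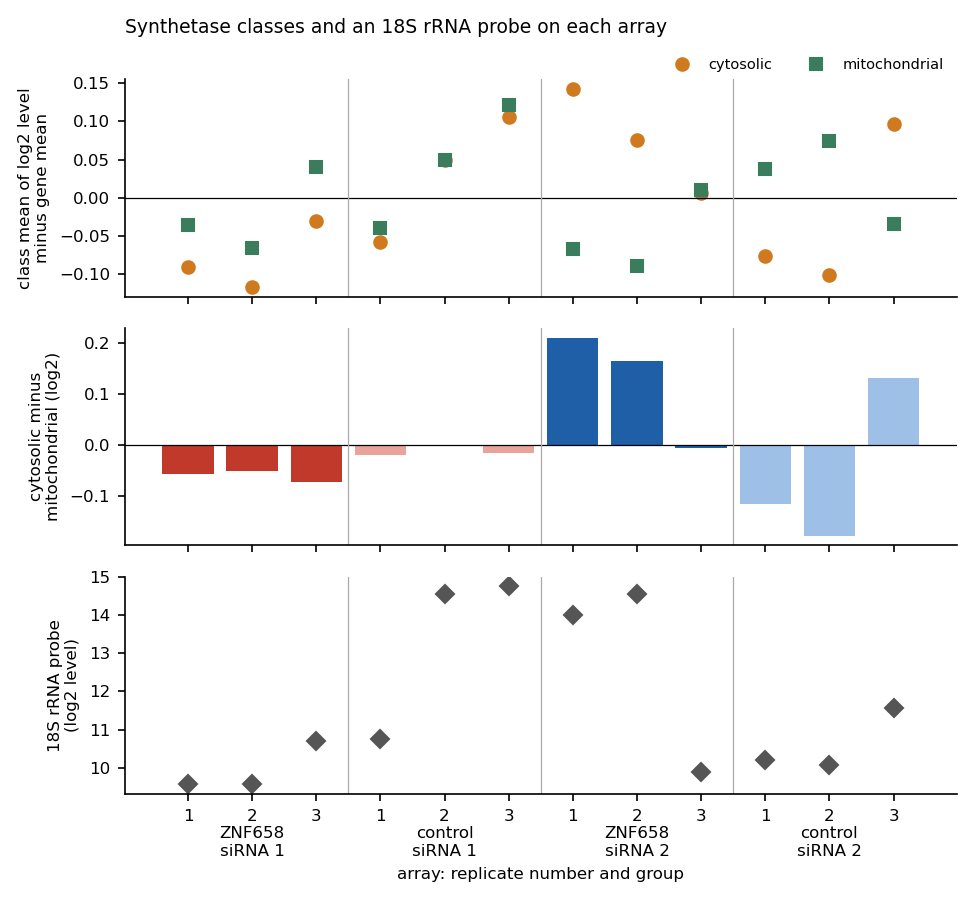
For each array (horizontal axis, by replicate number and group), the mean of the cytosolic and of the mitochondrial genes as log2 level minus the gene's mean (top), the first minus the second (middle) and the log2 level of the 18S rRNA probe (bottom). The middle panel is above 0 on replicates 1 and 2 of ZNF658 siRNA 2 (0.21 and 0.17) and replicate 3 of control siRNA 2 (0.13).

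All 7 synthetases of the multisynthetase complex, EPRS1, IARS1, LARS1, MARS1, QARS1, RARS1 and KARS1, were measured. With siRNA 1 they lay below 0 in 5 of 7, with a median of −0.083, and with siRNA 2 above 0 in 6 of 7, with a median of 0.15. The difference of siRNA 2 from siRNA 1 was above 0 for all 7, from 0.040 (RARS1) to 0.49 (EPRS1), against 51.1% of all probes, and none was called. In the fit without the arrays numbered 3 of the Dharmacon groups, RARS1 was −0.14 in the difference, which left 6 of 7 above 0 against 49% of all probes, and 5 of 7 were above 0 with siRNA 2 against 47.5%. On all arrays the difference was also above 0 for 9 of 11 other cytosolic synthetases, with a median of 0.22 against 0.17 in the complex. Of these 11, 10 lay below 0 with siRNA 1 and 9 above 0 with siRNA 2. Cytosolic genes with an ATF4 site in the window were measured for 5 of 6, and none was called. The log2 fold changes of AARS1, IARS1, MARS1, NARS1 and TARS1 were −0.23, −0.083, 0.068, −0.18 and −0.073 with siRNA 1 and 0.23, 0.044, 0.15, 0.25 and −0.17 with siRNA 2. Without the same arrays the siRNA 2 values of these 5 genes were 0.18, 0.27, 0.59, −0.0053 and 0.047. YARS2, with the mitochondrial site, gave −0.022 and −0.20, and the second was −0.088 without these arrays.

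Of 13 other genes of tRNA charging, 7 were measured, namely GATB and GATC of the enzyme that makes glutaminyl-tRNA in mitochondria, MTFMT, SEPSECS, PSTK, DTD1 and TRNT1, which adds the CCA end to tRNA. None was called in any of the 6 comparisons on all arrays, and TRNT1 alone was called lower in the difference of the siRNAs without the arrays numbered 3 of the Dharmacon groups, where 4.78% of probes were. Of 29 ATF4 target genes, a list that includes ATF4 itself, 23 were measured, and 0 were called with either siRNA. With siRNA 1, 15 of 23 lay below 0 with a median of −0.064, against 51.4% of all probes, and with siRNA 2, 16 of 23 lay above 0 with a median of 0.093, against 50.1%. The second count, with the arrays numbered 3 left out, was 13 of 23, with a median of 0.022, against 47.5%. Between the controls 2 of 23 were called, against 2.03% of probes, both lower, ATF3, a stress transcription factor (−0.84, SE 0.15, limma adjusted P = 0.00768), and SLC7A11, the cystine transporter (−1.47, SE 0.21, adjusted P = 0.000922). Leaving out the arrays numbered 3 gave 5 of 23 called lower, where 5.44% of probes were called in either direction. Between the Dharmacon and Ambion arrays 8 of 23 were called, against 4.61% of probes. Lower with Dharmacon were ATF3 (−0.82), SLC7A11 (−1.32), DDIT4 (−0.62), CEBPB (−0.48), NUPR1 (−0.83) and PPP1R15A (−0.53), and higher were STC2 (0.46) and PYCR1 (0.64), and the same 8 genes were called without the arrays numbered 3. The synthetases, with 0 of 34 called in the same comparison, had medians of 0.067 in cytosolic and −0.026 in mitochondrial genes.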

How the data were processed

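BeadStudio was used by the authors to export the scans. Their first deposited table gives, for 47231 probes on each array, the bead intensity with its detection p-value, not normalized. Their second gives normalized log2 values, deposited by the authors and used here as an alternative only. For it the submitters' notes name lumi, at a version not given in the sources used here. Here the intensities went through neqc (limma 3.58.1, statmod 1.5.0, R 4.3.3), which subtracts background, applies quantile normalization and adds an offset of 16. A probe was tested if every array of some group detected it (P under 0.01), which left 14804 probes. One limma model with a mean per group (lmFit, then eBayes with trend) covered the 12 arrays, and P values were adjusted by Benjamini-Hochberg across the tested probes. Calls required an adjusted P value under 0.05 and a 1.2-fold change. Intervals are 95%.

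The brightest of a gene's probes was used. Of 37 named synthetase probes 35 were tested, and a second probe of IARS1 and of MARS2 was not. Names came from the platform annotation, which named 11868 of the tested probes. The rule for genes given with array values took, in each comparison, the 3 cytosolic and 3 mitochondrial genes with the largest absolute change, and any called gene. The values of MARS1, NARS2 and VARS1 when replicate 3 was left out of the Dharmacon groups, and the plot of HARS1 and NARS1, were chosen after their values were seen. The members, the gene lists and the tests were chosen with earlier results of these data known. Residuals of same-numbered arrays correlated from −0.59 to 0.40 (mean −0.035), so the numbers were taken as unpaired. The limma and rank product tests were checked on simulated data. The number of arrays limits the precision.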

Additional observations from a re-analysis of the deposited data

How the results depend on the processing

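No synthetase gene was called with quantile normalization alone, median scaling, the authors' table, another detection filter, no fold minimum, pooled controls, the rank product test, any 1 array left out, or the replicate number as a block, where 0 members were called in all 6 comparisons and 201 of all probes between the controls. Pooled controls and the rank product test were run only for each siRNA and for the mean of both. Array quality weights changed the calls. They gave 1 with siRNA 1 (EPRS1, −0.41, adjusted P = 0.0497, against 5.68% of probes), 1 with siRNA 2 (HARS2, −0.55, adjusted P = 0.0499, against 4.05%), 6 in the difference of the siRNAs (AARS1, EPRS1, FARSA and FARSB higher, HARS2 and NARS2 lower, against 18.4%), 3 between the controls (HARS2 and NARS2 higher, SARS2 lower, against 17%) and 1 between the suppliers (SARS2, −0.46, against 13.8%). The weight of replicate 3 of control siRNA 2 was 0.156. With replicate 3 left out of both Dharmacon groups, 2 were called in the difference (HARS2 and NARS2, lower, against 9.61%). The arrays left out had been picked by their values in the same data. The cause of these changes in calls was not tested.

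The cytosolic median minus the mitochondrial median was 0.22 with siRNA 2, 0.21 in the difference, −0.049 between the controls and 0.031 in the mean of both siRNAs. With weights it was 0.34, 0.41 and −0.19 in the first 3 of these. With replicate 3 left out of both Dharmacon groups it was 0.38 in the difference, −0.18 between the controls and 0.16 in the mean. Leaving out 1 array at a time gave 0.049 (without control siRNA 2 replicate 2) to 0.27 (without control siRNA 2 replicate 3) with siRNA 2, 0.15 to 0.32 in the difference and −0.18 to 0.023 between the controls, with the same 2 arrays at the ends. NARS1 with siRNA 2 turned from 0.25 to −0.0053 with replicate 3 left out of both Dharmacon groups. Without these arrays the sign turned for 11 of 34 genes with siRNA 2, 14 in the mean, 3 in the difference, 10 between the controls and 2 between the suppliers. Leaving out 1 array turned the sign of 0 of the 36 values chosen by the rule for named genes and moved 19 of them by over 1.5 times.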
